A study of Mus musculus with 8 samples.

Results

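Car4 and Gpihbp1 capillary endothelial nuclei were selected from single-nucleus RNA libraries of adult mouse heart by their own transcripts. A nucleus was a member if it held UMIs (unique molecular identifiers, each counting 1 captured RNA molecule) of at least 2 of the 5 genes Car4, Gpihbp1, Ablim3, Cobl and Gm12002. It could hold at most 1 of the arterial genes Sema3g, Gja5, Mannr and Stmn2, at most 1 of Lhx6, Kirrel3 and G630055G22Rik, and at most 1 of the endocardial genes Npr3, Cytl1 and Tmem108. It also had at least 200 detected genes, under 5% mitochondrial UMIs, under 2% of its UMIs from Ttn, Ryr2 and Trdn, and no UMI of Pdgfra, Csf1r or Rgs5. The rule kept 4324 of 37767 nuclei that passed the gene and mitochondrial limits, and 14009 nuclei passed the lineage limits before the capillary genes were asked for. The 5 genes of the rule are therefore a description of these nuclei and not a result.

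The labels named 8 libraries of adult heart, 2 for each sex of each genotype: wild-type mice without the transgene (nTg) and mice labelled Tg-ccna2, in which cyclin A2 is expressed constitutively. The promoter of the transgene, the strain, the age and the number of animals behind a library were not given in the sources used here. Second-replicate nTg females and both nTg males carried matrices that repeat, value for value, those of the Tg libraries with the same sex and number, and these 3 were not analysed. In the nTg copies the number of matrix columns (8062, 8992 and 8931) differed from the number of listed barcodes (7583, 8896 and 11241), whereas in the Tg copies both were equal, so the Tg labels were kept. The values themselves do not show which genotype these 3 matrices come from. The 5 libraries left were nTg female 1, both Tg females and both Tg males, and values below are given in that order. Female and male mice were compared within the Tg label, 2 libraries against 2, and the single nTg library is described without a test. The labels did not say whether replicate libraries came from separate mice, so p-values measure only the spread between these libraries, and no batch was named.

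Transcripts of Ccna2, the transgene's own gene, went against 2 genotype labels. Among nuclei with at least 2% of UMIs from the 3 cardiomyocyte genes, Ccna2 stood at 449 CPM (UMIs per 1000000 UMIs of the class) in the library labelled nTg female 1 and at 0.448 CPM in the library labelled Tg female 1, against 801, 219 and 145 CPM in the other 3. In capillary members the same 5 libraries held 53, 2, 24, 73 and 105 Ccna2 UMIs. Both libraries are named by their labels throughout, and no direction below should be read as an effect of genotype. The comparison of sexes rests on these labels too, since Tg female 1 is 1 of its 2 female libraries. In members, sex labels matched the sex-linked genes in every library. Among the cardiomyocyte nuclei Xist stood at 788, 974 and 696 CPM in the 3 female libraries. There it stood at 19.3 CPM (241 UMIs) in Tg male 1 and 0.383 CPM (5 UMIs) in Tg male 2, and the source of the Tg male 1 UMIs was not tested. The libraries held 8062 to 10642 barcodes and 25045167 to 38593706 UMIs each, and the summed members held 1432572 to 2569173 UMIs per library, with a median of 1788 to 2207 UMIs per nucleus. Pairs of libraries shared 14 to 28 barcodes, of which 0 or 1 belonged to a member in both.

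Heart muscle draws most of its energy from fatty acids, and its capillaries are continuous, thin-walled vessels specialised for moving them out of the blood. Gpihbp1, the protein after which the nuclei are partly named, anchors lipoprotein lipase on the luminal face of capillary endothelium, where the enzyme frees fatty acids from lipoproteins. Cd36 and the fatty acid binding protein Fabp4 then take part in carrying them across, under the transcription factors Meox2 and Tcf15. Car4 is a carbonic anhydrase fixed to the outer membrane of the same cells, where it helps exchange carbon dioxide. Glucocorticoids act on endothelium through a receptor that switches on genes such as Fkbp5, Tsc22d3, Zbtb16 and Per1.

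Within the Tg label 4 autosomal genes of the members passed the test between sexes, as described below, and the 250 bases before their RefSeq start sites are shown here because these genes moved together, followed by the same stretch of Car4. All are read 5′ to 3′ on the gene's own strand from the RefSeq table (GRCm38.p6), in lower case, with CACGTG and CGGAAG in capitals wherever either was found on either strand.
Fkbp5, chr17:28486150-28486399, minus strand: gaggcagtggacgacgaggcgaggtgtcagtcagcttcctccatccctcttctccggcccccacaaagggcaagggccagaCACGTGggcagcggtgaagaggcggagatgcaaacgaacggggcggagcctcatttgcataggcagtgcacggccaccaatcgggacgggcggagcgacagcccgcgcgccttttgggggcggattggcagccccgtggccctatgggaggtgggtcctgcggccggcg
Ddit4, chr10:59951771-59952020, minus strand: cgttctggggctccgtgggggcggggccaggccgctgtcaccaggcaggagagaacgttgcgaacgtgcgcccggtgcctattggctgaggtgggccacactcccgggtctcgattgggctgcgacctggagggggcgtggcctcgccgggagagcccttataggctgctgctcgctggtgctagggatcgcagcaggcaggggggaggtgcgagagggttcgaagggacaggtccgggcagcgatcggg
Rgcc, chr14:79301636-79301885, minus strand: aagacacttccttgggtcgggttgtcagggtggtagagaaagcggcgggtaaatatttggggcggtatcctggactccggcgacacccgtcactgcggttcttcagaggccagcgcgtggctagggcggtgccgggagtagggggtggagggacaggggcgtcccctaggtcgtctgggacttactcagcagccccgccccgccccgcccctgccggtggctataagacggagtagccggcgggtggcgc
Timp4, chr6:115252206-115252455, minus strand: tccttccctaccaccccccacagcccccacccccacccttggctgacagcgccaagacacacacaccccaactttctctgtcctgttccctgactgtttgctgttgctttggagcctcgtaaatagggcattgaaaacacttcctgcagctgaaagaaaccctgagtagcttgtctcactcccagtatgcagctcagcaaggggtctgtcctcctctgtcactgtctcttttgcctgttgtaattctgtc
Car4, chr11:84957504-84957753, plus strand: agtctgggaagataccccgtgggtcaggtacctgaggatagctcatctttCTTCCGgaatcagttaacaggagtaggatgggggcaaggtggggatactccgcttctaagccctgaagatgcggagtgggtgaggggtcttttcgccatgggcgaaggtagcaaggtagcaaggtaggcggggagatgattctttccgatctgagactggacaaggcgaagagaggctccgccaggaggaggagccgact
The Fkbp5 stretch ends just before a RefSeq start that lies inside the longer GENCODE gene model (chr17:28399094-28517527). The last bases of the Ddit4 and Rgcc stretches likewise lie inside their GENCODE gene models (chr10:59949669-59951834 and chr14:79288756-79301645). The motifs searched on both strands were the glucocorticoid receptor half-site AGAACA, the E-box CACGTG and the ETS-type site CGGAAG. The E-box CACGTG was found once, 169 bases before the start of Fkbp5, and 6.02% of 32851 RefSeq promoters of this length hold it. CGGAAG was found once, on the reverse strand 200 bases before the start of Car4, and 13.6% of promoters hold it. AGAACA, held by 16.1% of promoters, had no match in these 5 windows. A match is a description of the letters and no evidence of binding. Gpihbp1 and Ablim3 have no entry among the RefSeq promoters used here and are named only.

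The marker genes were detected unevenly in the members. Ablim3, an actin-binding protein, had a UMI in 83.1% of them, Gpihbp1 in 73.4%, Cobl, an actin nucleator, in 66.9%, Gm12002 in 64.3% and Car4 in 29.2%. The share of Car4 ran from 20.9% to 37.6% over the 5 libraries, against 0.271% of nuclei chosen by a mirror rule on the arterial genes, 0.403% of endocardial nuclei and 2.49% of Pdgfra nuclei. Gpihbp1 was wider spread: 36.4% of nuclei chosen by Lhx6 and Kirrel3 and 9.34% of arterial nuclei held a UMI of it. Median UMIs per nucleus ran from 1862 to 2709 over the libraries in the arterial class, from 2056.5 to 3221 in the endocardial class and from 2227 to 3174 in the Pdgfra class, against 1788 to 2207 in members. Of the members 1339 held 2 of the 5 genes, 1358 held 3, 1185 held 4 and 442 held all 5, and 1691 nuclei with exactly 1 stood just outside the rule. Gm12002 (chr11:12314514-12351028, plus strand, annotated as antisense in GENCODE vM21 on GRCm38) lies inside Cobl (chr11:12236608-12464960, minus strand). The strand setting of the counting was not given in the sources used here, and whether reads of Cobl were counted for Gm12002 was not tested. By this pair alone 161 members (3.72%) qualified.

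Genes outside the rule went with the label. All 12 capillary genes that the rule did not use lay higher in members than in the pooled arterial, Lhx6 and Kirrel3, and endocardial nuclei in each of the 5 libraries, with a median log2 ratio of 2.12. Over 4618 genes at 50 CPM or more, 30.4% lay higher and 21.9% lower in all 5 libraries. Because the members were chosen from the same counts, these ratios (log2 of CPM + 1) carry no test. Rgcc, a cell cycle regulator, stood at a mean of 438 CPM in members and 51.3 CPM in the other endothelium. Slc28a2, a nucleoside transporter, stood at 311 against 40.9 CPM, Timp4, an inhibitor of metalloproteinases, at 279 against 41.6 CPM, and Kdr, the main VEGF receptor, at 513 against 110.2 CPM. Cd36 stood at 2994 against 703 CPM and Fabp4 at 1472 against 494 CPM. That pool is mostly arterial and endocardial. The 206 Lhx6 and Kirrel3 nuclei stood near the members or above them in several of these genes, with Aqp1 at 1245 CPM (795 in members), Fabp4 at 1559, Meox2 at 216 (142 in members), Tcf15 at 99.03 (88.4 in members), Timp4 at 261 and Slc28a2 at 290.1 CPM. Rgcc, Cd36 and Kdr stood there at 361, 2293 and 257 CPM, between the pool and the members.

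Markers of endocardial and arterial endothelium mostly lay lower. Of 6 endocardial genes outside the rule 5 were lower in all 5 libraries, among them Nrg1, a growth factor made by endocardium, at 1.68 against 854 CPM. Of 9 arterial genes outside the rule 8 were lower in all 5 libraries. Bmx, a kinase of arterial endothelium, stood at 12 against 540.5 CPM, while Dll4, a Notch ligand, varied between libraries. Venous markers were mixed: Vwf stood at 37.2 against 960.0 CPM, whereas Aplnr, the apelin receptor, stood at 64.1 against 7.39 CPM and Nrp2, a receptor for VEGF and semaphorins, at 686 against 149.6 CPM. In Lhx6 and Kirrel3 nuclei alone Aplnr stood at 61.6 and Nrp2 at 484 CPM. Of 7 lymphatic genes 4 were higher in all 5 libraries and 0 lower, with a median log2 ratio of 0.93. Of 12 pan-endothelial genes 6 were higher and 4 lower in all 5 libraries, with a median log2 ratio of 0.06. Cdh5, the endothelial cadherin, stood at 688 against 368 CPM and Flt1, a VEGF receptor, at 2871 against 1784 CPM, while the adhesion molecule Pecam1 stood at 878 against 2330.5 CPM.

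Among the 15 genes with the highest ratios, Gm12002, Cobl and Car4 of the rule led with log2 ratios of 7.12, 6.51 and 6.22. Of the others Nav3 had a ratio of 3.93, Adora2a, the adenosine receptor that raises cyclic AMP, 3.89, Rsad2, an interferon-inducible antiviral protein, 3.68 and Ccdc85a 3.66. Vxn (3.88) and 2610203C22Rik (3.64) overlap on opposite strands of chromosome 1, and whether reads of Vxn were counted for 2610203C22Rik was not tested. The Lhx6 and Kirrel3 nuclei alone lay nearer the members than the pool did. Nav3 stood there at 456 CPM (916 in members) and Ccdc85a at 931 CPM (1594 in members). Adora2a stood at 23.7 CPM (56.5 in members) and Rsad2 at 19.3 CPM (90.8 in members). The lowest ratios were those of Nrg1 (−8.33), Npr3 (−7.11), Tmem108 (−6.87), 4932413F04Rik (−6.18), Smoc1 (−6.00), Enpp6 (−5.94), Ahsg (−5.86) and Cytl1 (−5.78). Of these Npr3, Tmem108 and Cytl1 belong to the rule, and 4932413F04Rik lies inside Tmem108 on the other strand.

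**Figure D1:**
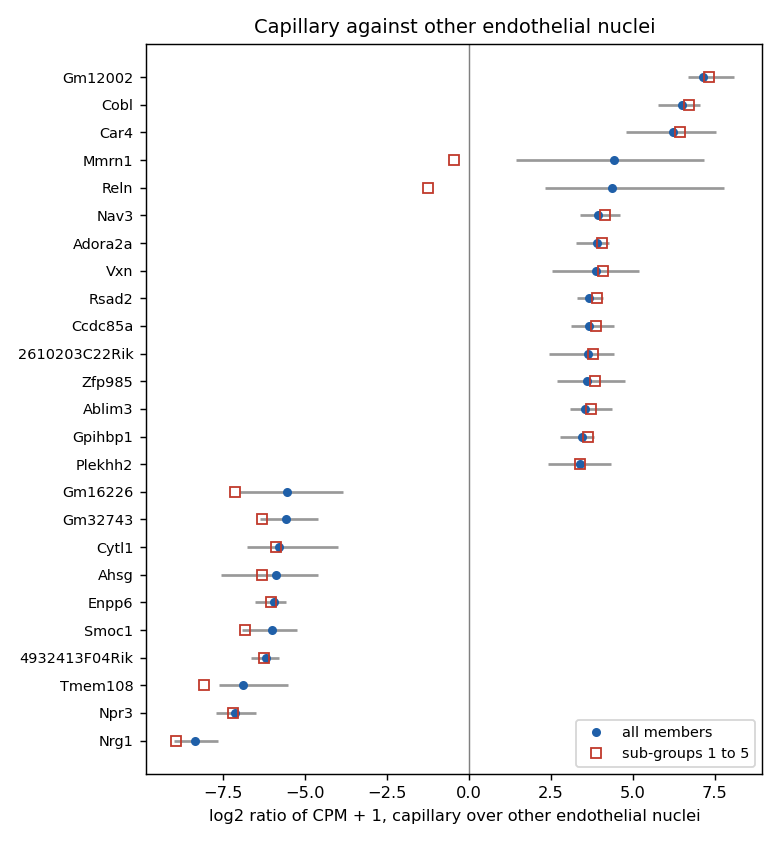
Mean log2 ratio of CPM + 1 between capillary members and the other 3 endothelial classes pooled, for the 15 highest and 10 lowest genes; points are means over 5 libraries, grey lines run from the lowest to the highest library and open squares show sub-groups 1 to 5 alone. Reln and Mmrn1 are the genes whose square lies on the other side of 0, at −1.23 and −0.44.

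Clustering of the members gave 12 sub-groups, which are called by number and leading genes. Sub-groups 1 to 5 held 3799 members (87.9%), with a median of 1934 UMIs per nucleus, and the doublet caller marked 0.0526% of them. Sub-groups 6 to 12 held 525 members (12.1%), had a median of 3812 UMIs and were marked as doublets in 43.4%. Sub-group 6 (170 nuclei) was led by Pcdh9, Lsamp and Abca8a, which is on the fibroblast list, sub-group 8 (74) by F13a1 and Ptprc of the macrophage list, sub-group 9 (64) by Rbm20 and Ryr2 of the cardiomyocyte lists and sub-group 10 (49) by Myh11 of the smooth muscle list. Sub-group 7 (129 nuclei) was led by Reln, Mmrn1 and Ccl21a of the lymphatic list, and 127 of its nuclei held at least 2 of 7 lymphatic genes. Reln and Mmrn1, which ranked among the highest ratios above, came from these nuclei: in sub-groups 1 to 5 their ratios were −1.23 and −0.44. Results below are therefore also given for sub-groups 1 to 5 alone, a division made after the data were seen.

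The 5 larger sub-groups differed in which genes led them, again as a description with no test. Sub-group 1 (1057 nuclei) had more Adam23, AU020206 and Rsad2 than the rest of the members, and also more Car4 (308 against 150.4 CPM) and Rgcc (699.9 against 394 CPM). Sub-group 2 (872) was led by the potassium channel Kcnc2 (404 against 34.6 CPM), Kirrel3 and Cysltr1, and held more Vegfc (715 against 122 CPM) and Vwf (119.6 against 19.2 CPM). Its leading genes Kirrel3 (400 against 46.0 CPM, 19.5% of nuclei) and G630055G22Rik (81.8 against 6.55 CPM, 7.91%) belong to the Lhx6 and Kirrel3 list. The rule lets a member hold 1 gene of that list. Lhx6 stood at 103 CPM in sub-group 2 and 88.8 CPM in sub-group 1. In Lhx6 and Kirrel3 nuclei Vegfc stood at 1070 and Vwf at 602 CPM. Whether sub-group 2 belongs with those nuclei was not tested. Sub-group 3 (728) was led by Nebl, Lama3 and Alpl, with the arterial genes Sema3g (127 against 8.95 CPM) and Mannr and the BMP inhibitor Smad6 (258 against 37.2 CPM). Its level of Efnb2, the arterial ephrin, was 473 CPM, against 51.3 CPM in sub-group 2, and its Btnl9 was 893 against 53.3 CPM. Aplnr ran the other way, at 15.3 CPM in sub-group 3 and 92.2 CPM in sub-group 2.

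Sub-group 4 (580 nuclei) was led by the glutamate transporter Slc1a1 (128 against 14.5 CPM), Nppa (detected in 6.55% of its nuclei) and the scavenger receptor Msr1. It held the highest CPM of the 5 sub-groups for Cd36 (4112), Lpl (1565), Fabp4 (1974) and Gpihbp1 (925). Sub-group 5 (562 nuclei) was led by Diaph3, Prnd, Rad51b and Kit, with genes of cell division among its first 10: Kntc1 (33.5 against 0.112 CPM), Prc1 and Hells. Kntc1, Prc1 and Hells were detected in 5.34%, 5.52% and 9.25% of its nuclei, against 32.7% for Kit. Top2a stood at 87.7 CPM and Mki67 at 34.2 CPM in sub-group 5, against at most 1.33 and 1.55 CPM in sub-groups 1 to 4. Sub-group 5 as a whole held the lowest levels of Cd36 (2553 CPM), Lpl (750.5 CPM), Fabp4 (1324 CPM) and Rgcc (232 CPM) and the highest of Nrp2 (1596 CPM). Each of the 5 sub-groups was present in all libraries, at 24.0% to 24.8% of members for sub-group 1 and 10.8% to 15.8% for sub-group 5. Their sizes were not compared between sexes, because the genes tested below took part in the clustering.

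Members made up a smaller part of the retained nuclei in both Tg female libraries than in both Tg male libraries. The share was 9.27% (95% Clopper-Pearson interval 8.70% to 9.86%) and 9.32% (8.65% to 10.02%) in the Tg females, and 13.03% (12.3% to 13.8%) and 12.5% (11.8% to 13.3%) in the Tg males. In nTg female 1 it was 14.0% (13.2% to 14.9%). These intervals cover counting error only. The Tg groups did not overlap, and the female mean lay 3.49 percentage points below the male mean (two-sided exact permutation test over 6 splits, p = 0.33, the smallest that 2 against 2 can give). The library labelled nTg female 1 lay above all 4 of them, so that with 3 female libraries the groups overlapped and the difference was −1.91 points (exact permutation test over 10 splits, p = 0.40). With sub-groups 1 to 5 alone the shares were 12.5%, 8.04%, 7.72%, 11.7% and 11.2%. Among nuclei that passed the lineage limits the members were 24.6% and 24.8% in Tg females and 34.1% and 34.8% in Tg males.

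**Figure D2:**
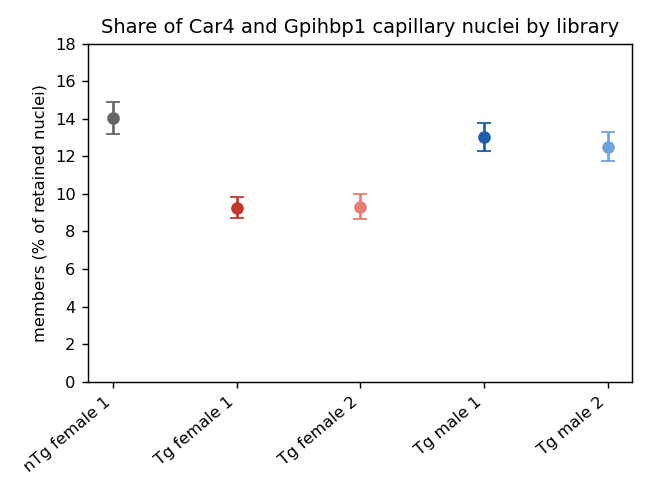
Share of retained nuclei (percent, vertical axis) that met the capillary rule in each library; bars are 95% Clopper-Pearson intervals. Both Tg female libraries lie at 9.27% and 9.32%, below the other 3, which lie between 12.5% and 14.0%.

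The sex comparison asked which genes differ in capillary nuclei between female and male hearts that carry the Tg label. Of 12608 genes tested on sums per library, 10 passed (edgeR quasi-likelihood test, Benjamini-Hochberg adjusted p under 0.05), which is 0.0793% of them, 2 higher (0.0159%) and 8 lower (0.0635%) in females. Leaving out a library raised the count, to 358 without Tg female 1, 203 without Tg female 2, 70 without Tg male 1 and 56 without Tg male 2, each time with the same 10 among them. In these fits 1 sex is a single library that is assumed to vary like the 2 of the other sex, so they add no support to the calls. The DESeq2 Wald test called 47 genes, 6 of them shared, and gave an adjusted p to 2831 genes. Of the 10 genes 6 were sex-linked. Xist, the RNA that silences an X chromosome, stood at 1023 CPM in nTg female 1, 1280.4 and 1069 CPM in the Tg females and 1.56 and 0 CPM in the Tg males. Its antisense partner Tsix, which it overlaps, stood at 862 and 1099 against 1.56 and 0.489 CPM. Whether reads of Xist were counted for Tsix was not tested. The Y-linked genes Uty (217 and 214 CPM), Eif2s3y (94.2 and 76.8), Ddx3y (82.9 and 73.9) and Kdm5d (44.0 and 29.4) were found in Tg males, with at most 2 UMIs in either Tg female library. Of the X-linked genes that often escape silencing, Eif2s3x had a log2 difference of 0.78 (SE 0.22, edgeR adjusted p = 0.385), Kdm6a of 0.50 and Kdm5c of 0.53, and none passed. At an unadjusted p under 0.05 there were 1043 genes, 8.27% of those tested, and the unadjusted share was 3.92% lower and 4.35% higher.

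The other 4 genes, Fkbp5, Ddit4, Rgcc and Timp4, were all lower in Tg females, by 2.87-fold to 4.36-fold. Fkbp5, a co-chaperone of the glucocorticoid receptor and one of its target genes, stood at 335 CPM in nTg female 1, 68.8 and 106 CPM in the Tg females, and 344 and 375 CPM in the Tg males. Both Tg females were far below both Tg males, while nTg female 1 lay just under the males. The log2 difference was −2.12 (SE 0.23, 95% interval −2.64 to −1.61, edgeR adjusted p = 0.0162). Ddit4, a stress-induced inhibitor of mTORC1 that glucocorticoids also induce, stood at 135, 21.8, 36.3, 107 and 97.9 CPM. Here nTg female 1 was the highest library and the Tg females the lowest, with a log2 difference of −1.92 (SE 0.24, edgeR adjusted p = 0.0457). A UMI of Ddit4 was seen in 38 of 901 and 40 of 652 members of the Tg females and in 209 of 1035 and 157 of 859 of the Tg males.

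Rgcc stood at 617, 186, 233, 597 and 558 CPM, so that again only the Tg females were low, and the log2 difference was −1.54 (SE 0.19, edgeR adjusted p = 0.0457). Timp4 stood at 309, 157, 133, 374 and 422 CPM, with nTg female 1 between the Tg groups and nearer to the males. Its log2 difference was −1.52 (SE 0.20, edgeR adjusted p = 0.0481). Groups of 2 libraries that do not overlap are common in these data, with 14.6% of genes lower and 24.1% higher in both Tg females than in both Tg males. In each of the 4 genes nTg female 1 lay above both Tg females, and in a fit of 3 female against 2 male libraries none of them passed (log2 differences −1.10 for Fkbp5, −0.67 for Ddit4, −0.77 for Rgcc and −1.02 for Timp4, edgeR adjusted p between 0.907 and 0.941). A genotype term in that fit takes up nTg female 1 and so returns the comparison of 2 against 2. Without the library labelled Tg female 1, whose Ccna2 goes against its label, the log2 differences of Tg female 2 from the Tg males were −1.86 for Fkbp5, −1.60 for Ddit4, −1.41 for Rgcc and −1.69 for Timp4.

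**Figure D3:**
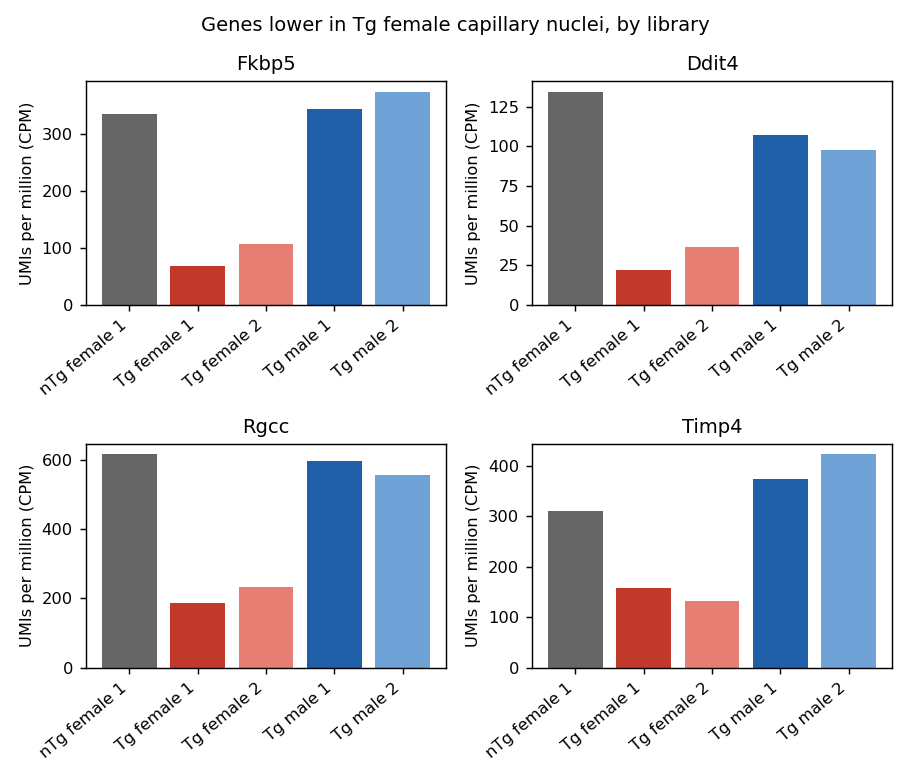
CPM (vertical axes, from 0) of Fkbp5, Ddit4, Rgcc and Timp4 summed over the members of each library; each bar is 1 library and there is no error bar. The red bars of Tg female 1 and Tg female 2 are the lowest in every panel, and nTg female 1 (grey) stands with the males in Fkbp5, Ddit4 and Rgcc.

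The 4 genes were also read within sub-groups, as a description, since they were picked from sums of the same nuclei. In each of sub-groups 1 to 5 both Tg female libraries were below both Tg male libraries for Fkbp5, Ddit4, Rgcc and Timp4. The share of all genes that do so was taken only over all members, where it was 14.6%. Gpihbp1 of the rule was lower in both Tg females in sub-groups 1, 2, 3 and 5, and Car4 in sub-groups 1, 2 and 3. In sub-group 4 Fkbp5 stood at 47.8 and 42.2 CPM in Tg females and 353 and 424 CPM in Tg males. In sub-group 5, led by Diaph3, Prnd, Rad51b and Kit, it stood at 61.4 and 126 against 227 and 177 CPM. The narrowest gap for Rgcc was in sub-group 4, at 218 and 559.5 against 698 and 622 CPM. Summed over sub-groups 1 to 5 the log2 differences were −2.25 for Fkbp5, −1.94 for Ddit4, −1.45 for Rgcc and −1.42 for Timp4, and all 4 passed.

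**Figure D4:**
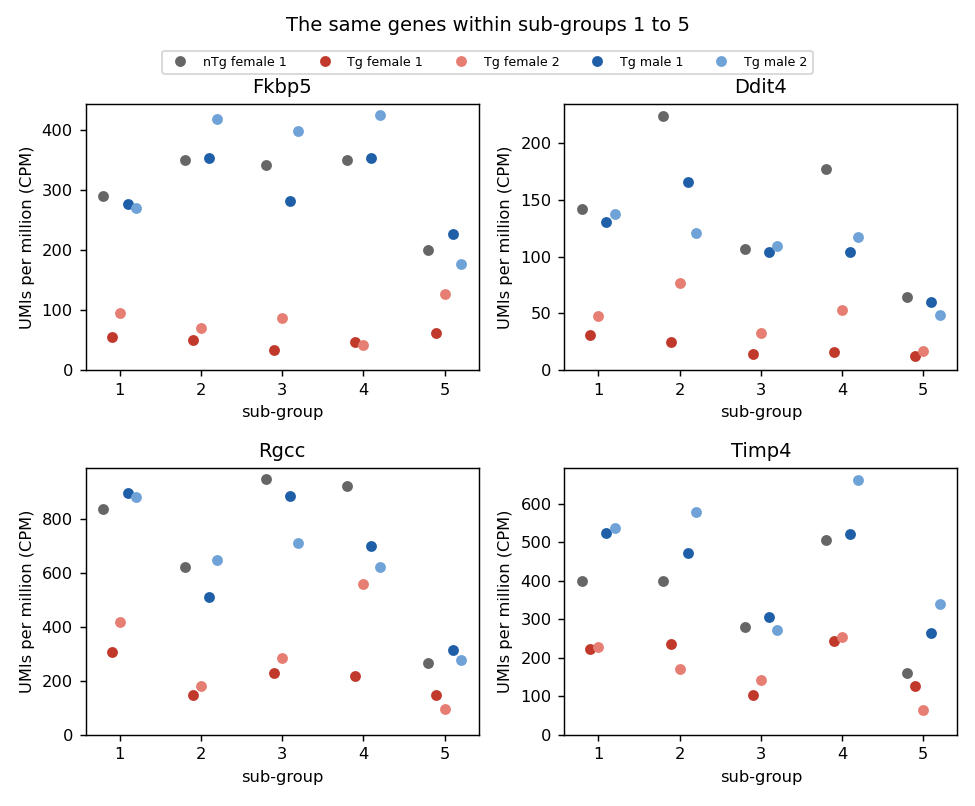
CPM of the same 4 genes (vertical axes) within sub-groups 1 to 5 (horizontal axes); each point is 1 library. In every sub-group of every panel both red points (Tg females) lie below both blue points (Tg males).

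Sub-groups 1 to 5 alone gave 21 genes of 11213 (0.187%). Besides the same 10 they held Zbtb16, a transcription factor induced by glucocorticoids, at 424 and 663 CPM in Tg females and 1893 and 1703 CPM in Tg males (log2 difference −1.79, SE 0.24, edgeR adjusted p = 0.0278). In all members Zbtb16 had a log2 difference of −1.80 and missed the threshold (edgeR adjusted p = 0.0794). Bcl2l1, which blocks apoptosis, stood at 281 and 356 against 785 and 711.5 CPM (−1.29, SE 0.20), and Klhl2 at 155 and 154 against 347 and 338 CPM (−1.20, SE 0.18). Slc10a6, a transporter of steroid sulfates, Col28a1, Spock2, Lpin2, Gpr160, Hipk1 and Hhipl1 were lower as well. Nppb, which encodes B-type natriuretic peptide and is mostly a cardiomyocyte transcript, was the only autosomal gene higher in Tg females, at 22.01 and 41.3 against 4.36 and 3.04 CPM (2.95, SE 0.45, edgeR adjusted p = 0.0365). None of these 11 genes passed by edgeR in all members.

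The wider lists were read by counts beside those of all genes. Of 17 glucocorticoid-responsive genes 16 were tested, 2 passed (Fkbp5 and Ddit4) and 14 lay lower in Tg females, with a median log2 difference of −0.68 against 0.01 over all genes. At an unadjusted p under 0.05, 10 were lower and 0 higher, where all genes gave 3.92% lower. DESeq2 called Fkbp5, Zbtb16 and Tsc22d3 and gave Ddit4 no adjusted p. The list had been picked with results of these data known, so its count is no independent evidence of its direction. Tsc22d3, an anti-inflammatory leucine zipper protein, stood at 215, 83.8, 98.4, 202 and 147 CPM (−1.01, SE 0.20, edgeR adjusted p = 0.225), Klf9 at 306, 167, 156, 224 and 278 CPM (−0.70) and Per1 at 109.7, 49.9, 83.1, 97.3 and 98.4 CPM (−0.65). Other members did not follow: Pdk4 (−0.38), Errfi1 (−0.44), Mt1 (0.02) and Lcn2 (0.18) overlapped between the Tg groups.

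Beside Gpihbp1, which the rule used, 20 genes of fatty acid uptake and lipid handling were on the list and 19 were tested. None passed by edgeR, with 6 lower and 1 higher at an unadjusted p under 0.05 and a median of −0.31, while DESeq2 called Cd36 and Lpl. All tested genes gave 3.92% lower and 4.35% higher at that unadjusted threshold. Lpl, the lipase that Gpihbp1 holds, stood at 1289, 675, 724, 1346 and 1281 CPM (−0.98, SE 0.20, edgeR adjusted p = 0.228). Cd36 stood at 3421, 2374, 1753, 3759 and 3665 CPM (−0.91, SE 0.26), so that both Tg females were the lowest libraries for both genes. Fabp4 (−0.59), Mgll (−0.62), Lipe, the hormone-sensitive lipase (−0.74), and Angptl4, an inhibitor of Lpl (−1.12), also lay lower. Tcf15 ran the other way, at 69.1, 125, 110.3, 65.4 and 72.4 CPM (0.71, SE 0.18, edgeR adjusted p = 0.344), while its partner Meox2 overlapped between the groups (−0.19).

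**Figure D5:**
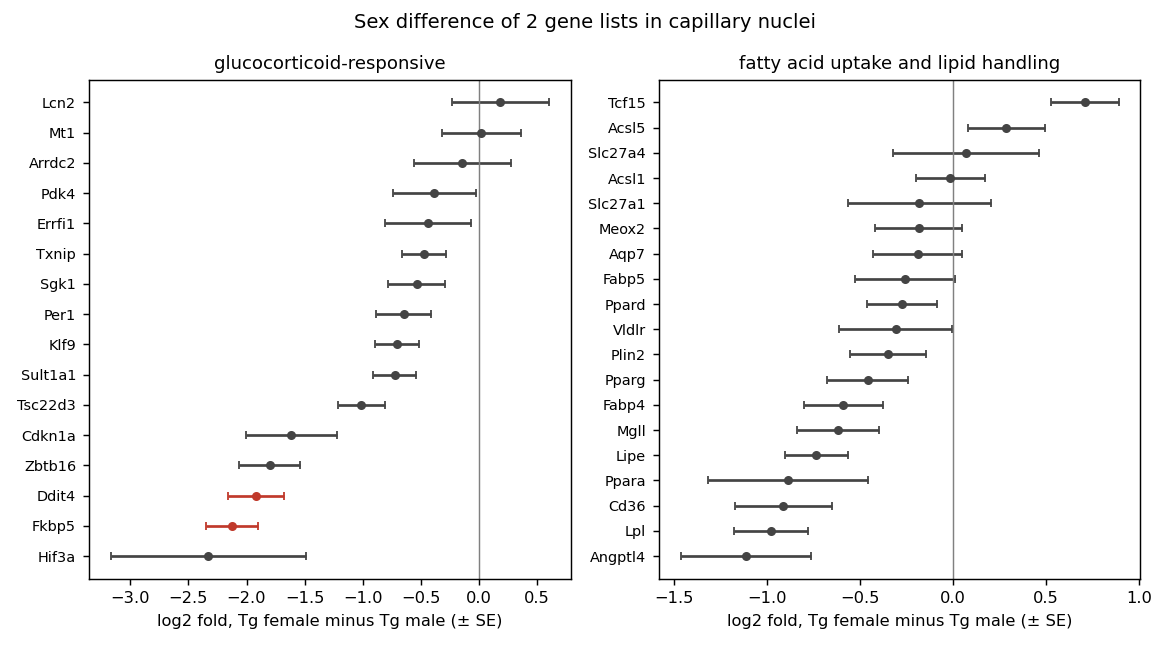
Log2 difference, Tg female minus Tg male, with its standard error (bars) for the tested genes of the glucocorticoid-responsive list (left) and of the fatty acid list without Gpihbp1 (right); red points passed at an adjusted p under 0.05. Fkbp5 and Ddit4 are the red points, and Tcf15 is the gene farthest to the right, at 0.71.

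Of the 5 genes of the rule Car4 (−0.62), Ablim3 (−0.53) and Gpihbp1 (−0.48) lay lower in Tg females and Cobl (−0.11) and Gm12002 (−0.03) overlapped. As they choose the members, these differences are a description with no test. Their summed level was 3258 and 3117 CPM in the members of Tg females and 3908 and 3682 CPM in those of Tg males. Of 12 capillary genes outside the rule Rgcc and Timp4 passed. Aqp1, the water channel of capillaries, stood at 909, 738, 386, 1036 and 905 CPM (−0.85, SE 0.31, edgeR adjusted p = 0.502), with Tg female 2 far below the rest, and Kdr lay higher in both Tg females (0.23).

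Of 28 endothelial transcription factors none passed by edgeR, with 5 higher and 4 lower at an unadjusted p under 0.05, and DESeq2 called Bcl6b. For this and the lists that follow, all tested genes gave 4.35% higher and 3.92% lower at that unadjusted threshold. Bcl6b stood at 88.5, 143, 185, 84.9 and 77.8 CPM (0.93, SE 0.19, edgeR adjusted p = 0.225), and Sox18 and Meox1 lay higher as well, while Gata2 stood at 92.6, 51.8, 60.7, 94.2 and 89.1 CPM (−0.78, SE 0.18). Of 16 clock genes tested none passed by either tool, with 3 higher and 2 lower at an unadjusted p under 0.05. Nr1d1 (1.46) and Dbp (1.10) lay higher in Tg females, and Per2 (−0.77) and Per1 lower, and the hour of collection was not given in the sources used here. Of 14 VEGF and angiopoietin genes none passed by either tool, and at an unadjusted p under 0.05 there were 2 higher and 1 lower. Among them Vegfc had a difference of 0.56 and Flt1 of −0.59. Of 21 interferon and MHC genes tested none passed by either tool, and 4 lay higher at an unadjusted p under 0.05, among them H2-Ab1 (1.18) and Isg15 (1.22). Lama4 (0.62) and Col15a1 (0.97), of the capillary basement membrane, and the adhesion receptors Icam1 (0.89) and Vcam1 (1.01) lay higher with no call. Apart from the transcription factor, clock, VEGF and interferon lists, 10 lists were pooled. They were junctions and adhesion, basement membrane, transport, sprouting, Notch, BMP and TGF-beta, vasomotor tone, immediate early and heat shock, insulin and Akt, and proliferation. Of their genes outside the rule 126 were tested and none passed by edgeR, with 9 higher and 9 lower at an unadjusted p under 0.05 and a median of −0.0029. DESeq2 called Ccnd3 among them.

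Fibroblast transcripts lay higher in members of the Tg female libraries. The summed CPM of 10 fibroblast markers, of which Pdgfra is 0 by the rule, was 898 and 1385 in Tg females and 686 and 729 in Tg males, and 6 of 8 tested lay higher at an unadjusted p under 0.05, none passing by edgeR and 1, Gsn, by DESeq2. Among all tested genes 4.35% lay higher at that unadjusted threshold. In sub-groups 1 to 5 the sums were 368 and 972 against 344 and 298 CPM, so that Tg female 2 kept the excess. The part of fibroblast transcripts in the higher values above was not tested. The 8 macrophage markers summed to 121 and 252 CPM in Tg females and 107 and 152 CPM in Tg males, so the groups overlapped. Of these markers 7 were tested, 2 lay higher at an unadjusted p under 0.05 and none passed by either tool. The 4 lower genes had log2 differences of −1.42 to −2.25 in sub-groups 1 to 5, where the part of fibroblast transcripts was not tested either. The summed 12 capillary genes outside the rule stood at 6913 and 5156 against 9498 and 9030 CPM.

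Fkbp5 was lower in Tg females in other cell types of the same libraries as well. It passed in arterial nuclei (log2 difference −1.93, SE 0.32, edgeR adjusted p = 0.0066, where 0.91% of 6265 genes passed), in Lhx6 and Kirrel3 nuclei (−3.09, SE 0.49, edgeR adjusted p = 0.0116, where 0.267% of genes passed) and in Pdgfra nuclei (−1.58, SE 0.20, edgeR adjusted p = 0.0437, where 0.115% passed). In endocardial nuclei (where 0.0649% of genes passed) it had a difference of −2.63 and in cardiomyocyte nuclei (where 0.025% passed) of −2.43, without passing. Rgcc passed in Lhx6 and Kirrel3 nuclei (−2.11, SE 0.36, edgeR adjusted p = 0.0189) and did not pass elsewhere, with differences of −0.81 in arterial, −1.76 in endocardial, −1.52 in Pdgfra and −1.61 in cardiomyocyte nuclei. It was scarce there, for example at 25.8 and 31.8 against 37.2 and 61.3 CPM in arterial nuclei. Zbtb16 passed in arterial nuclei (−1.85) and in Lhx6 and Kirrel3 nuclei (−2.18). Ddit4 passed in none of the other 5 classes, but its differences there were of like size, from −1.37 in arterial to −2.67 in endocardial nuclei. Timp4 passed in none of the 4 in which it was tested, with −0.82 to −0.96.

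Whether the sex difference was itself larger in members than in arterial nuclei was tested as an interaction. None of the 4 genes passed: the difference of differences was −0.11 for Fkbp5 (95% interval −0.63 to 0.41), −0.51 for Ddit4 (−1.45 to 0.43), −0.68 for Rgcc (−1.58 to 0.22) and −0.46 for Timp4 (−1.31 to 0.38). Against Lhx6 and Kirrel3 nuclei none of the 4 passed either. There the sex difference was the smaller in members for Fkbp5 (1.12, 0.31 to 1.92, edgeR adjusted p = 0.719 and unadjusted p = 0.00666) and for Rgcc (0.69, −0.06 to 1.45), and the values were 0.06 for Ddit4 and −0.53 for Timp4. A p that misses the threshold does not show that the classes are alike. Against arterial nuclei Lpl passed (interaction −1.19, SE 0.25, edgeR adjusted p = 0.0351). It stood at 675 and 724 against 1346 and 1281 CPM in members. In arterial nuclei it stood at 129 and 111 against 97.3 and 103 CPM. In Lhx6 and Kirrel3 nuclei Lpl stood at 389 and 499.9 against 815 and 1235 CPM (log2 difference −1.20, SE 0.31, without passing). Its interaction against them did not pass (0.37, −0.15 to 0.88), so the lower level in Tg females was not confined to members.

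Over all genes 37 of 11177 (0.331%) passed the interaction against arterial nuclei. In 6 of them the female minus male difference was the higher in members and in 31 the lower, and 715 (6.4%) passed at an unadjusted p under 0.05. Mgp, a matrix protein, stood at 266 and 467 CPM in members of Tg females and 163 and 128 CPM in those of Tg males. In arterial nuclei it stood at 1977 and 1508 CPM in Tg females and 3578 and 2484 CPM in Tg males. Its mean over the libraries was 2605 CPM in arterial and 3425 CPM in endocardial nuclei, and Pdgfra nuclei held more of it than cardiomyocyte nuclei. The part of fibroblast transcripts in its values in members was not tested. Its interaction was 2.07 (SE 0.24, edgeR adjusted p = 0.000193). Nav2 (1.35), Nhsl1 (1.48), Kcnq1 (1.57) and Cytl1 (1.81), an endocardial gene of the rule whose value is therefore a description, went the same way, with lower arterial levels in both Tg females, while in members none of the 5 was lower in both. On the other side A330015K06Rik, Plce1, Reln and Carmn had 0 arterial UMIs in both Tg males and 5 to 26 in each Tg female library, and Dgkb had 1 and 0 against 15 and 19, so no fold is given for them. In members 4 of these genes overlapped between the sexes, for example Plce1 at 137 and 97.7 against 62.3 and 101 CPM, and Carmn stood at 17.9 and 20.9 against 23.4 and 37.7 CPM. Arterial nuclei of Tg females also held more fibroblast marker UMIs (732 and 1246 against 269 and 226 CPM) and smooth muscle marker UMIs (108 and 179 against 17.2 and 33.4 CPM), whose part was not tested. Without doublet-marked nuclei 7 genes passed, Mgp, Nhsl1 and Kcnq1 among them. Without Tg female 2 there were 88 and without Tg male 1 there were 64.

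The same interaction against Lhx6 and Kirrel3 nuclei rested on 22 to 60 of those nuclei per library. It was passed by 11 of 10790 genes (0.102%), with the difference higher in members for 1 and lower for 10. The named ones were Cacna1c, Ryr2, Ttn, Fgf13, Gm47271, Pid1, Pcdh9 and Lama2, and in members none of these 8 had a log2 sex difference beyond 0.47. Ttn and Ryr2 belong to the rule, which limits their UMIs, so their values are a description. Ttn stood at 379 and 591 against 676 and 522 CPM in members and at 687 and 214 against 230 and 160.0 CPM in the other class. Tg female 1 was the high library there, and its summed Ttn, Ryr2 and Trdn in those nuclei was 1328 CPM, against 187 to 321 CPM in the other 4 libraries. Without doublet-marked nuclei 3 genes passed, none of them among the 11. DESeq2 called 0, and leaving out a library gave 4 without Tg female 1, 14 without Tg female 2, 2 without Tg male 1 and 6 without Tg male 2.

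The library labelled nTg female 1 stood alone under its label, so it was set against the 4 Tg libraries by size only. It was past 2-fold from their mean and outside their range in 68 of 8803 genes at 20 CPM or more (0.772%), 22 higher and 46 lower. The same count was 113 for Tg female 1, 284 for Tg female 2, 50 for Tg male 1 and 111 for Tg male 2, each against the other 4, so nTg female 1 was not the most different library by this count. Without Tg male 1 its own count was 114. Among the 68 genes Cyp1a1 had the largest ratio. Cyp1a1 (chr9:57687928-57703824, plus strand), a monooxygenase switched on by the aryl hydrocarbon receptor, had 442 UMIs in nTg female 1, or 199.6 CPM, and 0, 0, 2 and 1 in the others. The ratio to the pooled Tg libraries was 539.6 (counting interval 183 to 2626), and 222 of 877 members held a UMI, against 3 of 3447.

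The other genes named by their size in nTg female 1 were modest beside it. Erbb4, a neuregulin receptor, stood at 153 CPM against 21.05 to 86.2, Gm11290 at 78.1 against 1.40 to 36.8, and Rgs13 and Gm6277 at 21.2 and 30.3 CPM against at most 16.0 and 13.3. The lowest were Dpp4, Muc16 and Efemp1, each with 2 UMIs against 12 to 95 in the Tg libraries, then Cyp26b1, which breaks down retinoic acid, at 10.4 against 16.3 to 129.8 CPM, and Rbfox1 at 22.6 against 84.9 to 199 CPM. Muc16 and Rbfox1 lead sub-group 11, which had 0 nuclei in nTg female 1 and 1 to 11 in each Tg library. Cells of 1 library are not replicates, and no p-value is given for these values.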

How the data were processed

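Nuclear RNA of adult hearts was measured as 10x Genomics single-nucleus libraries. The deposited matrices hold UMI counts per gene and barcode as whole numbers for 32285 genes, made by the authors with Cell Ranger 7.0.0 per the file headers, on mm10 per the submitters' processing notes. Intron counting and strand were not given in the sources used here. Counts of the members were summed per library and tested with edgeR 4.0.16 (quasi-likelihood, TMM, filterByExpr by sex, Benjamini-Hochberg over all tested genes, threshold 0.05) on the 4 Tg libraries; standard errors were derived from the F statistic. Interactions used 1 term per library. CPM are UMIs per 1000000 UMIs of the summed class, and 1 CPM was added before log2 ratios between classes. Shares were compared by exact permutation in SciPy 1.17.1.

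Arterial, Lhx6 and Kirrel3, and endocardial nuclei were chosen by mirror rules: at least 2 genes of their own list and at most 1 of each other list. Members were clustered with Scanpy 1.11.5. Scrublet marked doublets at an expected rate of 6%, they stayed in the main results, and in 1 library where its threshold marked none the highest scores at that rate were taken. Alternatives included DESeq2 1.42.0, and the fits were tested on simulated data. Gene positions are those of GENCODE vM21 on GRCm38, where all 68 genes looked up matched by identifier, and promoters those of RefSeq.

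Genes named between sexes were those past the threshold with at least 10 CPM in the higher group and no overlap, up to 10 a side, with sex-linked genes and Ccna2. Interactions named up to 5 a side, the nTg library 5 a side by size, and the comparison of endothelial classes the 15 highest and 10 lowest ratios with 1 sign in all 5 libraries at 50 CPM. List genes named were the 4 with the highest levels or those called, and further ones were chosen after their values were seen. The members, the lists and these rules were chosen with earlier results of these data known. Depth limits single genes: 3 UMIs in a library's members, taken as the floor, are 1.17 to 2.09 CPM.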

Additional observations from a re-analysis of the deposited data

Results flagged for a closer look

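The sex difference was not the same in capillary and arterial nuclei for 37 of 11177 genes (0.331%) by the edgeR interaction term. Without doublet-marked nuclei 7 genes passed. Of the named genes Mgp (edgeR adjusted p = 0.000193), Nhsl1 (0.00224), Nav2 (0.00822), Kcnq1 (0.0134) and Cytl1 (0.0284) lay lower in arterial nuclei of both Tg females than of both Tg males, and in members none was lower in both. Cytl1 belongs to the rule that chose the nuclei, so its p is a description. Plce1 (edgeR adjusted p = 0.00537), A330015K06Rik (0.0111), Dgkb (0.0296), Reln (0.044) and Carmn (0.0468) had arterial UMIs almost only in Tg females, with at most 1 UMI in a Tg male library. Pdgfra nuclei held more of Plce1, A330015K06Rik, Dgkb and Reln than cardiomyocyte nuclei did, and less of Carmn. Arterial nuclei of Tg females also held more fibroblast marker UMIs (732 and 1246 against 269 and 226 CPM). Smooth muscle marker UMIs were higher there too (108 and 179 against 17.2 and 33.4 CPM). The part of such transcripts in these 5 genes was not tested.

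Against Lhx6 and Kirrel3 nuclei the sex difference was not the same for 11 of 10790 genes (0.102%) by edgeR. DESeq2 called 0 (113 at an unadjusted p under 0.05), sub-groups 1 to 5 gave 1, and none of the 11 passed without doublet-marked nuclei. The named ones were Cacna1c (edgeR adjusted p = 9.23e-07), Pid1 (0.000522), Ttn (0.000522), Pcdh9 (0.00839), Gm47271 (0.00839), Ryr2 (0.0163), Lama2 (0.0448) and Fgf13 (0.0448). Ttn and Ryr2 belong to the rule, so their p is a description, and both changed sign without doublet-marked nuclei. For them the high value was that of Tg female 1, with 90 and 32 UMIs in 60 nuclei. Pid1 and Pcdh9 had 0 UMIs in those nuclei of both Tg males and 7 and 12 in the Tg females.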

How the results depend on the processing

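The number of genes that passed between sexes (10) moved with the processing: 47 by the DESeq2 Wald test, 262 with no filter on low counts, 4 with at least 10 UMIs in every library (which leaves out genes absent in 1 sex), 6 with 3 female against 2 male libraries and no genotype covariate, 21 in sub-groups 1 to 5 (a setting added after the data were seen) and 56 to 358 when a Tg library was left out, highest without Tg female 1. Same-numbered libraries share only a number (correlation of their deviations 0.0633), and a replicate block gave 17. Fkbp5, Ddit4, Rgcc and Timp4 stayed lower in Tg females under the 17 alternatives. All 4 were lost in the 5-library fit without covariate, Timp4 also with DESeq2 size factors, and Ddit4 had no adjusted p by the DESeq2 Wald test. Adding a genotype term to 5 libraries returns the same comparison of 2 against 2 (10 genes), and all 4 passed in the other 13, of which 4 leave 1 sex with a single library that is assumed to vary like the 2 others. The member share kept its direction in 13 of 13 alternatives (−9.74 to −1.91 points). As the Tg groups did not overlap, the 4 that leave out a Tg library could not reverse it. The replicate block only returned the main difference (−3.49 points). Against arterial nuclei 37 genes became 14 by DESeq2, 81 with no filter, 7 without doublet-marked nuclei, 9 with 5 libraries, 24 in sub-groups 1 to 5, 105 with a replicate block within class and 26 to 88 when a library was left out. Against Lhx6 and Kirrel3 nuclei 11 became 0 by DESeq2 (113 at an unadjusted p under 0.05), 7 with no filter, 3 without doublet-marked nuclei, 7 with 5 libraries, 1 in sub-groups 1 to 5, 9 with a replicate block within class and 2 to 14 when a library was left out. Without doublet-marked nuclei the interaction of Ryr2 turned to 0.60 and that of Ttn to 0.32. The 68 genes of nTg female 1 became 17 at 50 CPM and 57 to 114 when a Tg library was left out, highest without Tg male 1. The causes of these shifts were not tested. Classes with few nuclei, above all the 22 to 60 Lhx6 and Kirrel3 nuclei per library, limit what can be seen.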

Other observations

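Cyp1a1 in the library labelled nTg female 1 was found in endothelial nuclei of some kinds and not of others. By sub-group of members it stood at 290 CPM in sub-group 1, 185 in sub-group 2, 345 in sub-group 3 and 281 in sub-group 4. In sub-group 5, led by Diaph3, Prnd, Rad51b and Kit, it stood at 8.02 CPM (2 UMIs in 95 nuclei). Sub-group 7, with the lymphatic genes, had 0 UMIs in 32 nuclei. Outside the members it stood at 168 CPM in Lhx6 and Kirrel3 nuclei (9 UMIs), 14.7 CPM in arterial nuclei (5 UMIs), 11.4 CPM in Pdgfra nuclei and 2.76 CPM in cardiomyocyte nuclei, and endocardial nuclei had 0 UMIs. The 4 Tg libraries had 0 UMIs in all of these other classes. Cyp1b1 and Ahrr, further genes known to respond to the aryl hydrocarbon receptor, had 2 and 3 UMIs in the members of nTg female 1 and at most 3 UMIs each in those of any Tg library. Counts this low cannot show a change. Tiparp and Nqo1, of the same kind, had more UMIs. In members Tiparp stood at 27.1 CPM in nTg female 1, against 23.7 to 35.2 CPM in the Tg libraries. Nqo1 stood at 4.06 CPM, against 3.11 to 5.58 CPM.

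Ccna2 in the members came mainly from sub-groups 6 to 12: in sub-groups 1 to 5 its level was 8.45, 0.629, 11.1, 3.39 and 3.04 CPM in the 5 libraries, against 23.9, 0.969, 16.8, 28.4 and 51.4 CPM in all members.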
